A study of Mus musculus with 16 samples.

Results

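The miR-297, miR-466, miR-467 and miR-669 families are 4 groups of mouse microRNAs (miRNAs) with similar, repeat-rich sequences, most of whose genes stand in 1 intron of Sfmbt2. Members were taken by name alone: every row of the count table whose miRNA name starts with 1 of these family numbers followed by a letter or a dash, whichever arm of the hairpin it names. This gave 73 of the 1377 miRNA names in the table. Among them, 11 sets holding 24 names carried the same count in every library, and each set was counted once, which left 60 distinct members. Members with the same counts are named together, such as miR-467a/b-5p, because their reads cannot be assigned to either name.

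The libraries are small RNA sequencing of bone-marrow-derived dendritic cells of 4 wild-type C57BL/6 mice, given as 8 weeks old in the labels for mice 1 to 3 and 7 weeks for mouse 4. Each of 4 groups has 4 libraries, numbered by mouse, and no group carries a genetic change. Control cells (CTRL) received neither agent, LPS cells received lipopolysaccharide, the bacterial ligand of Toll-like receptor 4, on day 8 (1 µg/mL, 6 h), quercetin cells (Q) received this plant flavonol at 25 µM on days 5 and 7, and quercetin + LPS cells (Q_LPS) received both. The cells are bulk cultures from which red cells were lysed before culture, so fewer cells of a type and less RNA per cell cannot be told apart.

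A miRNA is cut from a hairpin precursor, leaves 1 or both arms of it (5p and 3p) as mature miRNA, and represses messenger RNAs that pair with its seed, bases 2 to 8. Sfmbt2 encodes a Polycomb-group protein and is imprinted, with expression from the paternal copy that is best known in the placenta. Its miRNA cluster is a rodent expansion of copied hairpins, known mainly from embryonic stem cells and extraembryonic tissue. Some members have been described in other cells: miR-466l-3p as a binder of the AU-rich element of Il10 mRNA in macrophages, miR-467b as a repressor of lipoprotein lipase in macrophages, miR-466h-5p as pro-apoptotic in nutrient-starved cultured cells, and miR-669a as a brake on muscle genes in cardiac progenitors.

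The RefSeq gene table (GRCm38.p6) lists 81 hairpin genes of the 4 families. Of these, 71 lie within Sfmbt2 on mouse chromosome 2, on the strand of the gene, with 0 overlapping a Sfmbt2 exon and 0 exons between the first and the last hairpin. The other 10 hairpin genes lie elsewhere. By name, 48 distinct members come from hairpins within Sfmbt2 only and 7 from other chromosomes only: miR-466k, miR-466q and miR-669n (chromosome 3), miR-467h (9), miR-466j (10), miR-467f (11) and miR-466i-3p (13). The remaining members have hairpins at both kinds of place or, as miR-466a-5p, matched no hairpin gene by name. A gene listed as Mir466, without a letter, lies within Sfmbt2 and was matched to no member. The label of an Sfmbt2 cluster thus holds for most members and not for all, and the 7 from other chromosomes made up 0.686% of the members' summed level. Copy numbers differ widely, with 12 hairpin genes for miR-669a, 10 for miR-467a and 8 for miR-466b, against 1 each for miR-467c, miR-467d, miR-467e and miR-669c.

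The RefSeq miRNA table (GRCm38.p6) matched only the 7 members from other chromosomes and held no sequence of any other member analysed. The 7 are shown because 1 of them, miR-467f, changed with quercetin and because they hold repeats. Each is printed 5′ to 3′ with the seed in capitals.
miR-467f: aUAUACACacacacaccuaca
miR-466i-3p: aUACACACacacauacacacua
miR-466q: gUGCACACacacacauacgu
miR-467h: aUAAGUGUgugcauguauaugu
miR-466k: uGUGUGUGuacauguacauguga
miR-466j: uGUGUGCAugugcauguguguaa
miR-669n: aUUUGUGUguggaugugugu
The first 3 hold the letters ACACAC and the other 4 hold UGUGUG on the mature strand, the only strand searched, and none of them holds both motifs. With miR-467g, which was not analysed here, the RefSeq table held 8 sequences of the families, all from hairpins outside Sfmbt2. Of these, 8 of 8 held 1 of the motifs, against 31 of 1671 (1.86%) of the other mature mouse miRNAs. Members from within Sfmbt2, the abundant ones among them, could not be searched. The 7 seeds differ from each other, and among other miRNAs in the RefSeq table only miR-668-5p has one of them, that of miR-467h. Seeds shared with members from within Sfmbt2 could not be seen, since their sequences were missing.

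Depth, the summed count of a library over all miRNAs, was 8660267 to 12529118 for control cells and 10096639 to 13943904 after LPS. It was 7694885 to 8563815 with quercetin alone and 6454535 to 9035375 with both agents. Levels are given as CPM (counts scaled to library size) after TMM scaling, edgeR's correction of library sizes, and 1 count was worth 0.0773 to 0.135 CPM. Control 3, LPS 4, quercetin 4 and quercetin + LPS 4 were each the lowest of their group on the second principal component of the 568 miRNAs tested. This component held 22.4% of the variance, and the loadings of these libraries were -0.35, -0.39, 0.05 and -0.46. In its group, quercetin + LPS 1 came next at -0.24. Below they are called the 4 libraries that stood apart, a name for their rank within each group, and results are given with and without these 4. Myeloid markers (6 miRNAs) summed to 172721 to 319977 CPM, whereas markers of the placenta and of pluripotent cells, the tissues best known for this cluster, summed to 1.13 to 3.45 CPM, with miR-290a-3p at 0. Erythroid markers (4 of 4 detected) summed to 397 to 891 CPM in controls, 442 to 1407 after LPS, 2583 to 6646 with quercetin alone and 1268 to 3040 with both agents. Stromal markers (5 of 5 detected) summed to 24.2 to 452, 32.5 to 77.9, 83.5 to 1239 and 95.6 to 4468 CPM in the same order of groups. Without LPS, depth was lower and erythroid markers were higher in every quercetin library than in any control, while stromal markers overlapped. In cells given LPS, depth was lower and stromal markers were higher with quercetin, both without overlap, while erythroid markers overlapped. The part of depth and of these markers in the results below was not tested.

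The families were a small part of the miRNA pool. Their 60 distinct members summed to a mean of 394.0 CPM, or 0.0394% of all counts, and ranged from 304.9 CPM in quercetin + LPS 2 to 482.6 CPM in LPS 4. The sum was 409.7 ± 46.5 CPM (SD, n = 4) in controls, 430.6 ± 36.0 after LPS, 367.1 ± 8.22 with quercetin alone and 368.6 ± 57.6 with both agents, and the groups overlapped in all 4 comparisons between single groups. The order of the group means depends on the scaling: with library size only they were 403.1, 385.4, 392.7 and 392.0 CPM, and with upper-quartile scaling 384.95, 395.8, 396.0 and 407.2. Of the summed level, miR-467 members made up 42.7%, miR-669 34.0%, miR-466 21.6% and miR-297 1.65%. Since 2 sets of miR-466 names, miR-466a/e-3p and miR-466b/c/p-3p, had the same counts in 14 of 16 libraries, their reads may be counted in both, and with the pair counted once miR-466 made up 15.4%, miR-467 46.1%, miR-669 36.7% and miR-297 1.78% of 365.1 CPM.

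With TMM scaling, the miR-466 sum differed most between the groups by ratio of means. It was 88.2, 96.4, 107.8 and 81.0 CPM in control 1 to 4 and 116.5, 88.7, 101.5 and 108.8 in LPS 1 to 4. With quercetin it was 87.5, 63.4, 67.6 and 62.2 CPM, and with quercetin + LPS 87.6, 67.1, 69.4 and 68.7. The quercetin + LPS libraries all lay below the LPS libraries, with a ratio of means of 0.705, and the quercetin libraries overlapped the controls in library 1 only, with a ratio of 0.752. By mouse number it was lower with quercetin in 4 of 4 mice in both comparisons. With the near-copies counted once, the miR-466 means were 61.9, 67.9, 47.1 and 47.9 CPM in control, LPS, quercetin and quercetin + LPS libraries, with ratios of 0.761 and 0.705 and again no overlap in cells given LPS. The ratio without LPS was 0.770 with RLE (DESeq2's size factors), 0.861 with upper-quartile scaling and 0.818 with library size only, and the ratio with LPS was 0.778, 0.846 and 0.842. The quercetin + LPS libraries overlapped the LPS libraries under each of these 3 scalings. A summed level over members has no test here. For the miR-467, miR-669 and miR-297 sums the corresponding ratios were 0.907 and 0.870, 0.964 and 0.933, and 1.29 and 1.29, with overlapping groups. Under upper-quartile scaling the miR-467 ratios were 1.04 and 1.05 and the miR-669 ratios 1.11 and 1.11, so their direction turns with the scaling. The miR-297 ratios were 1.32 and 1.43 with RLE, 1.48 and 1.51 with upper-quartile scaling, and 1.37 and 1.56 with library size only. Under these scalings they lay farther from 1 than the miR-466 ratios, with overlapping groups.

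**Figure D1:**
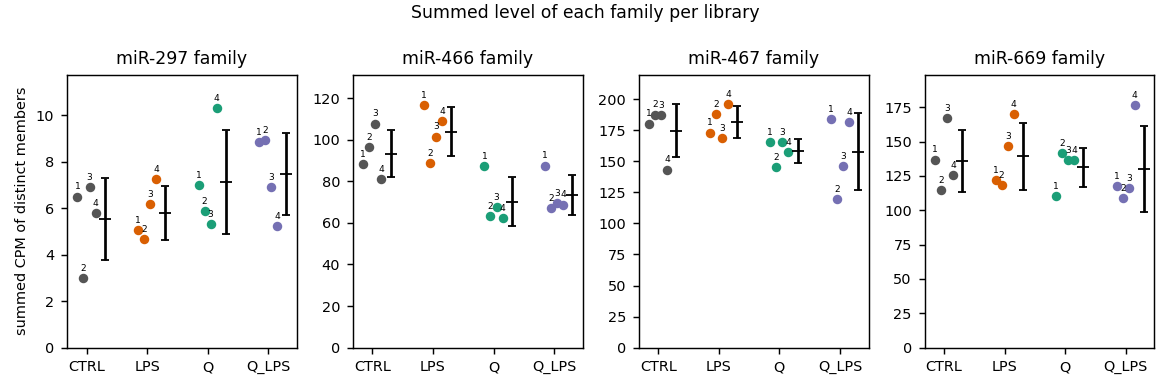
Summed CPM of the distinct members of each family, 1 panel per family; the x axis gives the group, each point is a library with its mouse number, and the bar is the mean ± SD of 4. In the miR-466 panel the 4 Q_LPS points (67.1 to 87.6 CPM) lie below the 4 LPS points (88.7 to 116.5 CPM) with the TMM scaling plotted, and overlap them under the other 3 scalings, while groups overlap in the other 3 panels.

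Single members ran from under 0.01 CPM to nearly 50 CPM. The most abundant was miR-467d-5p (48.1 CPM), followed by miR-669a/p-5p (47.5), miR-467c-5p (47.0), miR-467a/b-5p (42.4), miR-669c-5p (30.0), miR-466a/e-3p (29.8), miR-669a/o-3p (29.8), miR-466b/c/p-3p (29.0), miR-467e-5p (14.1) and miR-467d/a-3p (13.4). Neighbours in this order overlapped across the 16 libraries, for example miR-467d-5p at 33.6 to 65.5 CPM and miR-669a/p-5p at 36.0 to 63.0, so the order within the first 4 and within the next 4 is not resolved. These 10 members made up 84.0% of the summed level. At the other end, 34 of 60 members had a mean under 1 CPM, and 4 had at most 3 counts in all 16 libraries together. The macrophage-described miR-466l-3p was among the low ones, with 12 counts in all, a mean of 0.0748 CPM. Abundance did not go with copy number in a simple way, since miR-467c, miR-467d and miR-669c, with 1 hairpin gene each, were among the 5 most abundant beside miR-669a and miR-467a with 12 and 10. Levels of different miRNAs also depend on how well each is ligated into a library, so this order describes reads.

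**Figure D2:**
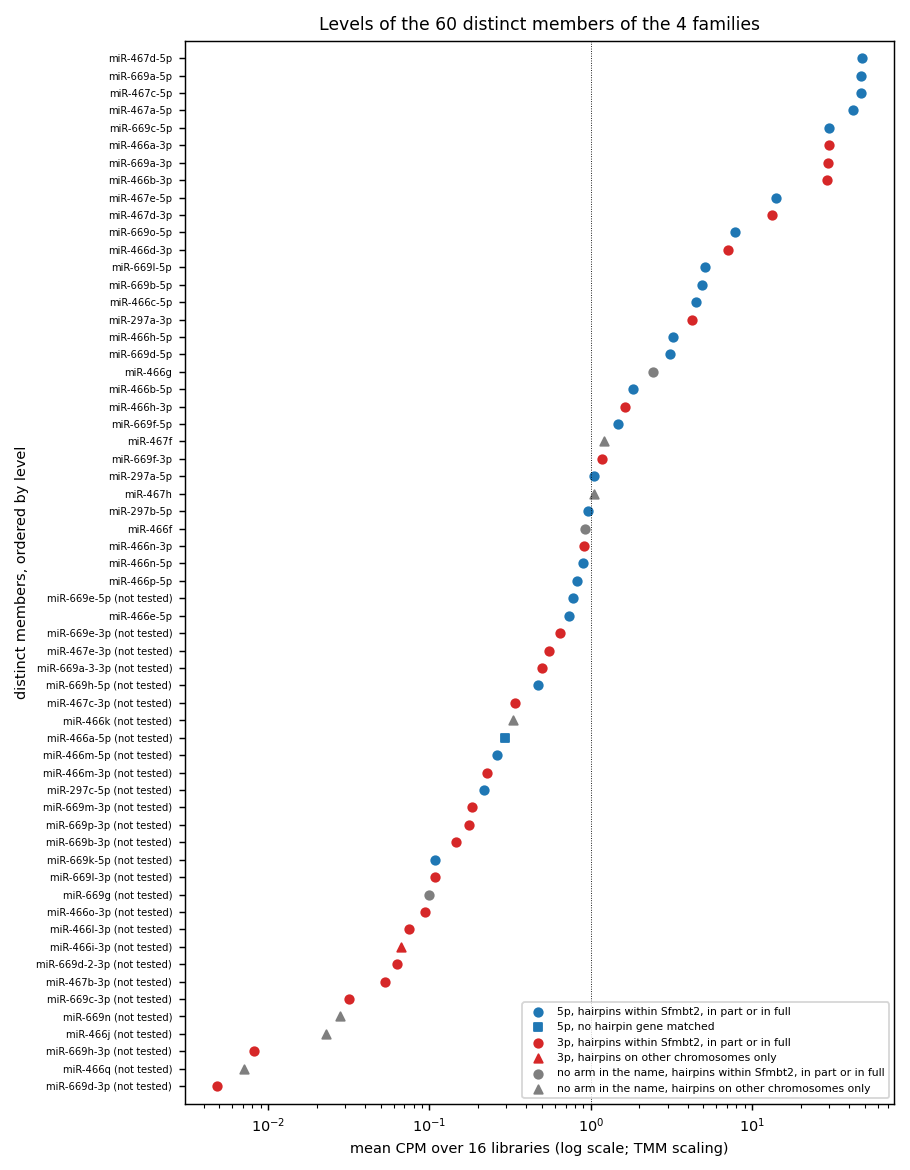
Mean level over 16 libraries of each of the 60 distinct members on a log axis in CPM, ordered from high to low; colour gives the arm, circles mark members with hairpins within Sfmbt2, triangles those from other chromosomes only, and a square the member without a matched hairpin gene. The 7 triangles reach at most 1.20 CPM, and the dotted line at 1 CPM leaves 34 members below it.

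The families differed in the arm that was recovered. The 5p arm made up 67.9% of the members' summed level and the 3p arm 30.5%, the rest being names without an arm. In miR-467 the 5p arms held 151.7 of 168.2 CPM and in miR-669 101.2 of 134.1 CPM, whereas in miR-466 the 3p arms held 68.9 of 85.2 CPM. With the near-copies counted once, the miR-466 3p arms held 39.95 of 56.2 CPM, and over all members the arms made up 73.3% (5p) and 25.0% (3p). Hairpin by hairpin, miR-467c gave 7218 counts from the 5p and 54 from the 3p arm, miR-669c 4451 and 6, and miR-467e 2163 and 87, with the 5p arm higher in 16 of 16 libraries. In the miR-466 family, miR-466d gave 144 counts from the 5p arm, which carries the counts of miR-466n-5p too, and 1105 from the 3p arm, and its 3p arm was higher in 16 of 16. The hairpin of miR-466h gave 522 counts from the 5p and 263 from the 3p arm, with the 5p arm higher in 12 of 16 libraries. Its 5p share, taken on the group means, was 74.3% in controls, 63.8% after LPS, 52.98% with quercetin alone and 66.4% with both agents. These shares rest on few counts and hide a wide spread. Quercetin + LPS 1 to 4 held 23, 4, 6 and 21 counts of the 5p arm and 5, 10, 9 and 3 of the 3p arm. Quercetin 1 to 4 held 9, 10, 15 and 13 against 8, 10, 16 and 8. Differences in this share between groups were not tested.

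Among the 10 most abundant members, miR-669c-5p varied most between libraries. The level of miR-669c-5p was 17.1, 21.8, 50.2 and 24.4 CPM in control 1 to 4, 24.9, 24.9, 22.6 and 44.0 in LPS, 23.1, 33.5, 33.5 and 30.7 in quercetin, and 29.1, 21.1, 27.6 and 51.3 in quercetin + LPS libraries. Its coefficient of variation over the 16 libraries was 34.3%, against 18.4% for miR-467d-5p and 13.4% for miR-467a/b-5p. Other abundant members, such as miR-669a/o-3p and miR-467d/a-3p, lay between miR-467d-5p and miR-669c-5p. The 3 libraries above 40 CPM are control 3, LPS 4 and quercetin + LPS 4, all among those that stood apart on the second principal component of all miRNAs. The level of miR-467c-5p was also highest of its group in these libraries (69.2, 65.3 and 62.2 CPM). Neither passed the test below in any comparison.

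Differences between groups were tested with edgeR's quasi-likelihood test on the counts of all 568 miRNAs that passed a filter on low counts, with Benjamini-Hochberg adjustment over these and a threshold of 0.05. The filter was passed by 32 distinct members and not by 28, so the counts below are of the 32, not of all members. Fold changes are on the log2 scale, with their standard error (SE).

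With LPS alone, none of the tested members was called. With edgeR, 0 of 32 members passed in LPS against control, where 0.528% of all miRNAs tested did, and 0 members, against 4.58% of all, had an unadjusted p under 0.05. The alternatives DESeq2 and limma-voom also called 0. The median log2 fold change of the tested members was 0.06, against 0.02 over all miRNAs tested. The smallest p was that of miR-466n/d-5p, whose level was 0.93, 0.82, 0.63 and 0.69 CPM in control and 1.52, 1.17, 1.74 and 1.38 in LPS libraries. These groups did not overlap, as in 2.11% of all miRNAs tested in the higher direction, and the difference of 0.90 ± 0.43 had an edgeR adjusted p of 0.965. The other 4 with the smallest p were miR-466h-3p (0.78 ± 0.38), miR-467d/a-3p (0.36 ± 0.23), miR-466f (0.79 ± 0.56) and miR-466a/e-3p (0.19 ± 0.21), with adjusted p of 0.965 to 0.999.

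Quercetin alone lowered miR-466g and miR-466h-5p, the products of neighbouring hairpin genes, 65th and 66th of the 71 in the order along the intron. These were 2 of 32 members (6.25%), both lower, where 15.8% of all miRNAs tested were called and 8.98% were called lower. Over all miRNAs 39 were called higher and 51 lower, which became 48 and 29 with upper-quartile scaling and 40 and 41 with library size only. The level of miR-466g was 2.32, 3.39, 5.40 and 2.34 CPM in control 1 to 4 and 0.98, 1.36, 1.25 and 1.32 in quercetin 1 to 4. The groups did not overlap, and it fell by 1.43 ± 0.35 on the log2 scale, 2.69-fold (edgeR adjusted p = 0.0126). The level of miR-466h-5p was 5.26, 6.26, 5.40 and 2.51 CPM in control and 1.11, 1.05, 1.70 and 1.56 in quercetin libraries, again without overlap. It fell by 1.83 ± 0.48, 3.56-fold (edgeR adjusted p = 0.0180), on 201 counts in the 4 control and 47 in the 4 quercetin libraries.

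The call of miR-466h-5p held without each library in turn, at log2 fold changes of -2.08 to -1.68 and edgeR adjusted p up to 0.0498. Without control 3, the log2 fold change of miR-466g was -1.081 with an edgeR adjusted p of 0.0509, which left 1 member called. Without the 4 libraries that stood apart, log2 fold changes were -1.15 for miR-466g (adjusted p = 0.0813) and -1.85 for miR-466h-5p (adjusted p = 0.0649), and 0 members passed the edgeR test, with 3 at an unadjusted p under 0.05.

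Other members lay lower in every quercetin library than in any control without passing the test. Groups that do not overlap in this direction were found for 5 of 32 members and for 11.1% of all miRNAs tested. Besides the called pair they were miR-466n/d-5p (log2 fold change -1.14 ± 0.51, edgeR adjusted p = 0.153), miR-669b-5p (-0.71 ± 0.33, 0.167) and miR-669a/p-5p (-0.34, 0.279). In quercetin 4, miR-466n/d-5p had 0 counts, which allows a level of up to 0.360 CPM. The fifth smallest p was that of miR-467c-5p, at -0.48 ± 0.24 (adjusted p = 0.204). The median log2 fold change of the tested members was -0.33, against -0.05 over all miRNAs tested.

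In cells then given LPS, quercetin lowered both arms of miR-466h, miR-467d/a-3p and miR-467f. These were 4 of 32 members (12.5%) in quercetin + LPS against LPS, where 22.9% of all miRNAs tested were called, 14.3% lower and 8.63% higher. Over all miRNAs 49 were called higher and 81 lower, against 67 and 66 with RLE, 71 and 54 with upper-quartile scaling and 75 and 50 with library size only. For miR-466h-5p the LPS libraries read 6.57, 7.01, 3.01 and 3.68 CPM and the quercetin + LPS libraries 2.37, 0.46, 0.78 and 2.83, a fall of 1.65 ± 0.48 on the log2 scale (edgeR adjusted p = 0.0219). Its opposite arm, miR-466h-3p, read 3.54, 3.21, 2.22 and 2.53 CPM against 0.51, 1.16, 1.17 and 0.40, a fall of 1.81 ± 0.41 (adjusted p = 0.00587). Neither pair of groups overlapped, and the lowest quercetin + LPS libraries held 4 counts of the 5p and 3 counts of the 3p arm.

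The 3p arm of miR-467d, whose counts are also those of miR-467a-3p, was the most abundant member called in this comparison. It read 18.8, 16.1, 18.7 and 21.1 CPM in LPS and 12.97, 6.39, 9.50 and 8.88 in quercetin + LPS libraries, without overlap, and fell by 0.98 ± 0.23, 1.98-fold (edgeR adjusted p = 0.00758). The opposite arms of these hairpins showed no such change: miR-467d-5p read 44.2 ± 4.24 CPM (SD, n = 4) in LPS and 48.5 ± 13.2 in quercetin + LPS libraries, and miR-467a/b-5p read 44.7 ± 4.37 and 40.5 ± 5.90. The call of miR-467d/a-3p was lost without the 4 libraries that stood apart (log2 fold change -0.89, adjusted p = 0.0510), and without LPS 1, LPS 4, quercetin + LPS 2 or quercetin + LPS 4 taken singly, with log2 fold changes of -0.61 to -0.77. It was also lost under upper-quartile scaling (-0.72, adjusted p = 0.0804) and with no filter on low counts (-0.85, adjusted p = 0.103).

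The miR-467f sequence printed above comes from a hairpin on chromosome 11, outside the cluster. Its level was 2.02, 2.14, 1.43 and 1.15 CPM in LPS and 0.41, 0.35, 0.91 and 0.54 in quercetin + LPS libraries, without overlap, on 74 and 18 counts. It fell by 1.61 ± 0.41, 3.05-fold (edgeR adjusted p = 0.0124). The call was lost without any 1 of 5 libraries, LPS 1, LPS 2 and quercetin + LPS 1, 2 or 4, with adjusted p of 0.0513 to 0.0663. That of miR-466h-5p was lost without LPS 1, LPS 2, quercetin + LPS 2 or quercetin + LPS 3 and under upper-quartile scaling. Only miR-466h-3p kept its call without each library in turn, with log2 fold changes of -1.93 to -1.39.

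By library left out, the count of members called in this comparison was 1 without LPS 1 or quercetin + LPS 2, 2 without LPS 2 or quercetin + LPS 4, and 5 without LPS 3. The neighbour miR-466g read 3.03, 3.31, 3.09 and 4.14 CPM in LPS and 2.68, 1.16, 1.17 and 2.15 in quercetin + LPS libraries. These groups did not overlap, and the difference of -0.91 ± 0.34 had an edgeR adjusted p of 0.0625. Groups without overlap in the lower direction were found for 5 of 32 members and 13.4% of all miRNAs tested. In the higher direction it was 1 of 32, miR-297b-5p, at 0.39 to 0.80 CPM in LPS and 0.81 to 2.09 in quercetin + LPS libraries (1.14 ± 0.53, adjusted p = 0.127), against 6.87% of all.

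**Figure D3:**
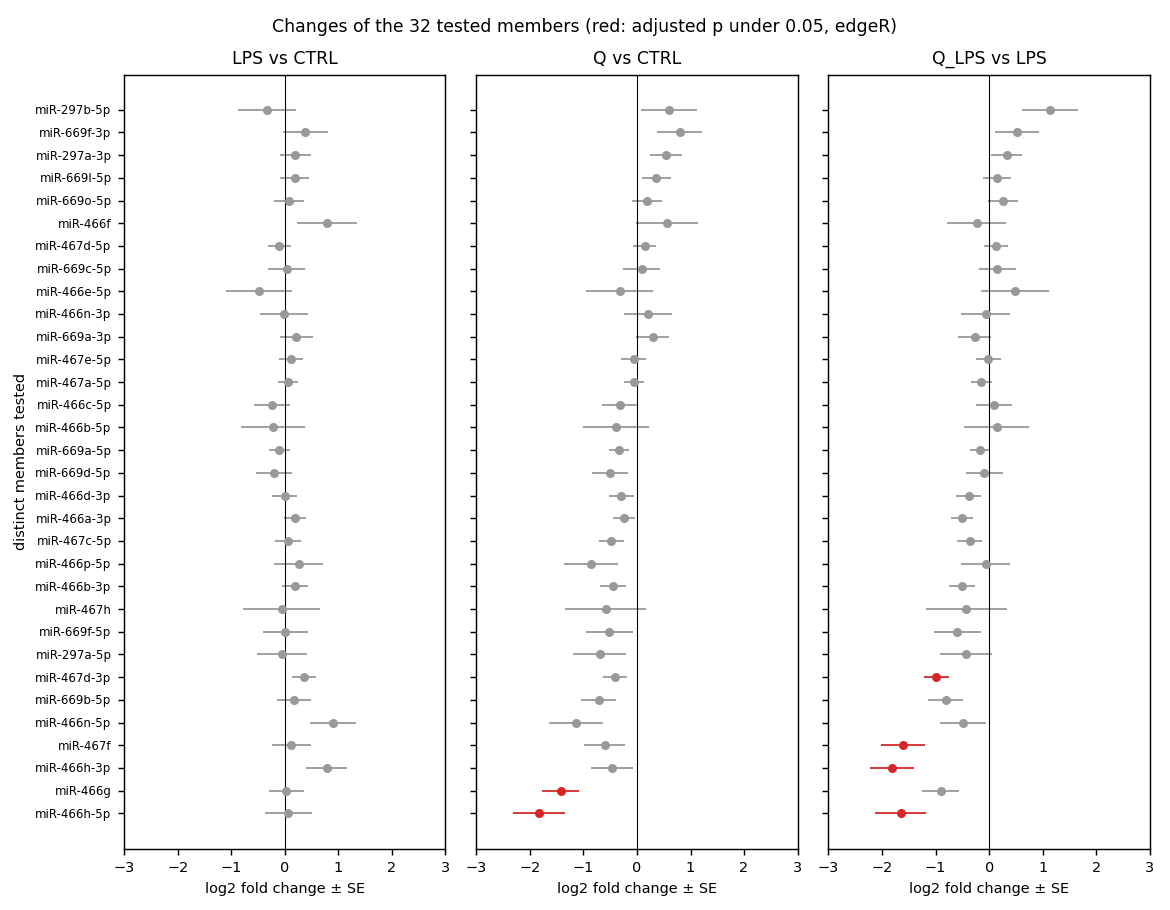
Log2 fold change ± SE (x axes) of the 32 tested members (y axis, 1 name per set of identical counts, ordered by the pooled quercetin fold change) in LPS vs CTRL, Q vs CTRL and Q_LPS vs LPS, with calls at an edgeR adjusted p under 0.05 in red. There are 0 red points for LPS, 2 for Q and 4 for Q_LPS, all 6 left of 0.

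The other comparisons of LPS gave no call. In quercetin + LPS against quercetin, 0 of 32 members passed the edgeR test, where 0.352% of all miRNAs tested did, and 1, against 7.22% of all, had an unadjusted p under 0.05. Neither DESeq2 nor limma-voom called any. That 1 was miR-466n/d-5p, at 0 to 0.62 CPM in quercetin and 0.81 to 1.24 in quercetin + LPS libraries, without overlap as in 1.94% of all (1.55 ± 0.50, adjusted p = 0.367). The other members with the smallest p were miR-466p-5p (1.05 ± 0.51), miR-467f (-0.88 ± 0.43), miR-466g (0.54 ± 0.36) and miR-466h-3p (-0.56 ± 0.43). Whether the effect of quercetin differs with LPS was tested as an interaction: 0 of 32 members and 0.0% of all miRNAs passed, with 1 member and 26 miRNAs (4.58%) at an unadjusted p under 0.05, and DESeq2 and limma-voom called 0 members. The member was miR-466h-3p, with a difference of -1.34 ± 0.57 (edgeR adjusted p = 0.889), followed by miR-467f (-1.01 ± 0.57), miR-467d/a-3p (-0.57 ± 0.32), miR-669a/o-3p (-0.57 ± 0.44) and miR-466p-5p (0.79 ± 0.68).

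Averaging the effect of quercetin over both LPS states, which uses all 16 libraries, gave 7 of 32 members lower and 0 higher (21.9%), where 36.3% of all miRNAs tested were called, 20.1% lower and 16.2% higher. Over all miRNAs 92 were called higher and 114 lower, against 105 and 97 with RLE, 125 and 75 with upper-quartile scaling and 120 and 85 with library size only. Of the 7, 4 are miR-466 members: miR-466h-5p (-1.74 ± 0.34, edgeR adjusted p = 9.23e-04), miR-466g (-1.17 ± 0.24, 0.00168), miR-466h-3p (-1.14 ± 0.28, 0.00577) and miR-466b/c/p-3p (-0.48 ± 0.17, 0.0402). The others were miR-467f (-1.11 ± 0.28, 0.00678), miR-467d/a-3p (-0.70 ± 0.16, 0.00352) and miR-669b-5p (-0.76 ± 0.23, 0.0180). The miR-297 family had 0 of 3 tested members past the test.

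**Figure D4:**
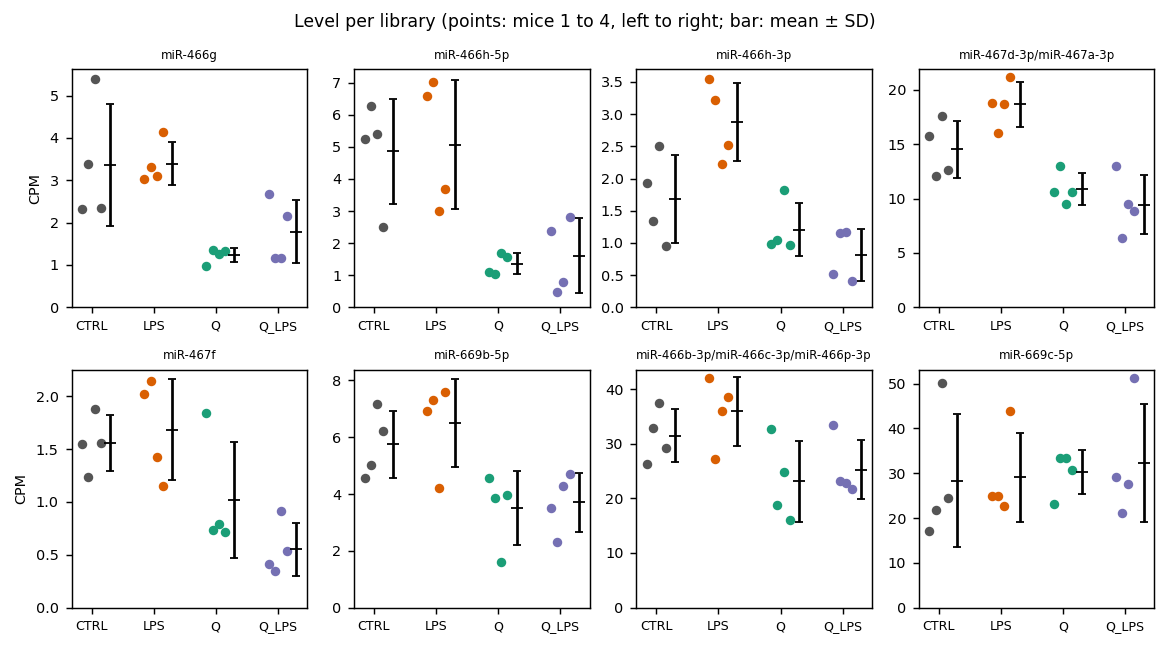
CPM (y axes, from 0) of the 7 members called over both LPS states and, in the last panel, of miR-669c-5p, in each library by group; points are mice 1 to 4 from left to right and the bar is the mean ± SD of 4. In the first panels miR-466g and miR-466h-5p lie lower in all 4 Q libraries than in any CTRL library, and miR-669c-5p stands above 40 CPM in 3 libraries of 3 different groups.

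Among these, miR-466h-5p and miR-466g were lower with quercetin in 8 of 8 same-numbered pairs of libraries, and the other 5 in 7 of 8. These counts take the mouse numbers as labelled. In its deviations from the group mean over all miRNAs, control 3 correlated at -0.47 to -0.17 with the other libraries of mouse 3 and at 0.47 to 0.67 with those of mouse 4, and control 4 correlated at -0.32 to -0.15 with those of mouse 4 and at 0.02 to 0.54 with those of mouse 3. The groups pooled in this way overlapped for each of the 7, whereas 4.93% of all miRNAs tested lay lower without overlap. The falls of miR-466h-5p, miR-466g, miR-466h-3p and miR-467f stayed past the threshold without each library in turn and under each scaling. That of miR-467d/a-3p was lost under upper-quartile scaling (-0.46, adjusted p = 0.0820) and with no filter on low counts (-0.64, adjusted p = 0.0517).

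The level of miR-669b-5p was 4.56, 5.03, 7.16 and 6.23 CPM in control, 6.91, 7.30, 4.20 and 7.58 in LPS, 4.55, 3.87, 1.59 and 3.96 in quercetin, and 3.50, 2.32, 4.30 and 4.71 in quercetin + LPS libraries. The call was lost without control 3 or 4, without LPS 1, 2 or 4, without quercetin 3 or 4 and without quercetin + LPS 2, each taken singly, with adjusted p up to 0.0755. It was also lost under upper-quartile scaling (-0.52, adjusted p = 0.122), with library size only (-0.56, 0.0573), with no filter on low counts (-0.71, 0.0626) and without the 4 libraries that stood apart (-0.76, 0.0664).

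The call of miR-466b/c/p-3p was lost in 22 of the 27 alternatives. Its counts are those of miR-466a/e-3p in 14 of 16 libraries. They differ in quercetin 2, at 18.7 against 25.3 CPM, and in quercetin 4, at 16.1 against 23.3. For miR-466a/e-3p the pooled difference was -0.38 ± 0.15 (edgeR adjusted p = 0.0588), past the threshold in none of the comparisons. Both names read 33.5 CPM in quercetin + LPS 1 and 21.8 to 23.1 in the other 3 libraries of that group. The log2 fold change of miR-466b/c/p-3p was -0.39 with RLE (adjusted p = 0.0996), -0.25 with upper-quartile scaling (0.346), -0.29 with library size only (0.262) and -0.39 with DESeq2 (0.0833). Without the 4 libraries that stood apart it was -0.31 (0.2495), and leaving out 1 library ended the call except for quercetin 1 (0.0475) and quercetin + LPS 1 (0.0444). It held with limma-voom (-0.50, 0.0326) and with the mouse as a block (-0.51, 0.0227). With the 2 near-copies counted once, 6 members were called.

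The direction of the smaller differences depends on the scaling. The median log2 difference of all miRNAs tested moved by 0.21 in the pooled comparison from TMM to upper-quartile scaling, and by 0.20 and 0.26 in the comparisons without and with LPS. The median of the tested members in the pooled comparison was -0.28 with TMM and -0.04 with upper-quartile scaling, which is -0.18 and -0.16 relative to the median of all. In quercetin + LPS against LPS the members' median was -0.20 with TMM, 0.03 with upper-quartile scaling and 0.05 with library size only. Under upper-quartile scaling the 7 pooled calls were 3 higher (miR-297a/b/c-3p, miR-297b-5p and miR-669f-3p) and 4 lower (miR-466g, both arms of miR-466h and miR-467f). With library size only they were 2 higher and 5 lower. With TMM the 3 members called higher there had edgeR adjusted p over 0.05, for example miR-297b-5p at 0.87 ± 0.37 (0.0796) and miR-669f-3p at 0.65 ± 0.29 (0.0945).

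The fold changes can be read along the cluster. Of members with 1 hairpin in the cluster and counts of their own, the 3 products of the neighbouring Mir466g and Mir466h (65th and 66th in order) had pooled log2 fold changes of -1.17, -1.74 and -1.14. The product of the next hairpin before them, miR-669o-5p (64th), had 0.22, and miR-467d-5p (54th) 0.14. At the other end the directions were mixed: miR-669f-5p (3rd) had -0.56 (adjusted p = 0.177), miR-669f-3p of the same hairpin 0.65 (0.0945), miR-669b-5p (5th) -0.76, miR-669l-5p (8th) 0.25 (0.325) and miR-467c-5p (13th) -0.42 (0.0581). These values are a description of position, which was not tested.

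**Figure D5:**
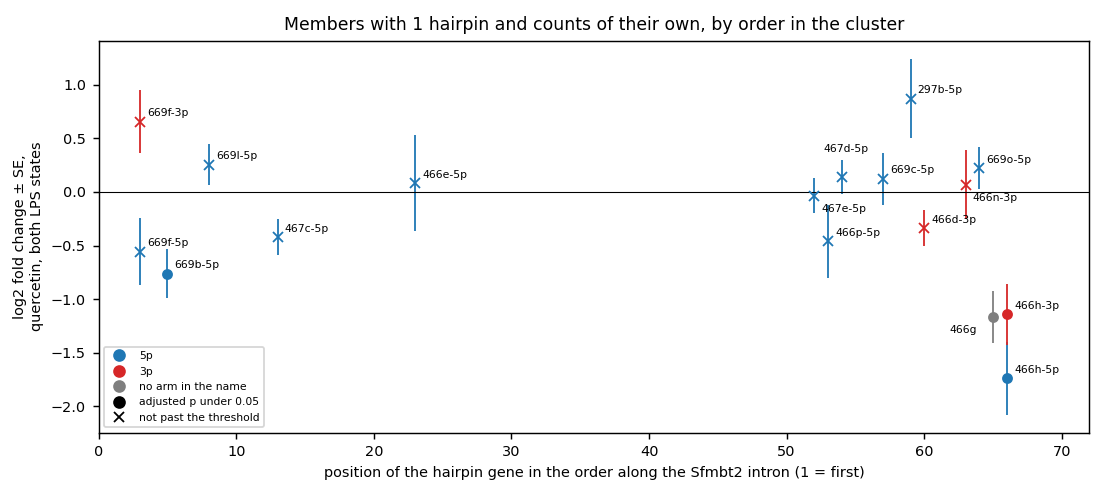
Pooled quercetin log2 fold change ± SE (y axis) of tested members with 1 hairpin and counts of their own, against the place of the hairpin gene in the order of the 71 along the Sfmbt2 intron (x axis, a rank and not a distance); circles are past the threshold, crosses are not, and colour gives the arm. The lowest 3 points are miR-466g and both arms of miR-466h at ranks 65 and 66.

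Over the 16 libraries the tested members varied together to different degrees. The median Pearson correlation of their log2 levels over all pairs was 0.06, with a range of -0.72 to 0.92 and 288 pairs above 0. These correlations include the group differences and share library and depth. Some tested members are scarce, such as miR-466e-5p and miR-466p-5p with 112 and 128 counts in all 16 libraries together. Counting error weakens the correlations of such members, so the median cannot show whether the members vary as 1 unit. The highest correlation, 0.92, was that of the near-copies miR-466a/e-3p and miR-466b/c/p-3p. Next came miR-466g with miR-466h-5p (0.85) and miR-467c-5p with miR-669a/p-5p (0.83), whereas miR-466h-5p with miR-669f-3p gave -0.72.

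Other miRNA clusters measured in the same fit differed among themselves, and the miR-17-92 and miR-106b-25 clusters came close to the families. In the pooled quercetin comparison, the Dlk1-Dio3 cluster, the other large imprinted miRNA cluster of the mouse, had 9 of 12 tested members higher and 0 lower, with a median log2 fold change of 1.62. The Clcn5 intronic cluster had 0 of 10 called (median 0.08), and the miR-17-92 and miR-106b-25 clusters had 0 higher and 4 lower of 17 (median -0.26). Of miRNAs outside the families that hold ACACAC or UGUGUG, 5 were tested, with 1 higher and 0 lower. Beside these stand 0 higher and 7 lower of 32 and a median of -0.28 for the miR-297, miR-466, miR-467 and miR-669 members. Of all miRNAs tested, 16.2% were called higher and 20.1% lower, with a median of -0.10. No test of the difference between lists was made.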

How the data were processed

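The authors deposited a table of raw counts of reads per mature miRNA for 16 libraries (miRNeasy RNA and TruSeq Small RNA libraries, per the labels' protocols). They used cutadapt and mm9, per the submitters' processing notes; versions, aligner and counting rule are not given in the sources used here. Of 1381 rows, counts of 4 names on more than 1 row were summed, and 1 row holding text and 4 rows that look exchanged between neighbours (0 of them members) were left out, leaving 1372 names. Members and lists were chosen with earlier results of these data known. Members are named by rule: the 10 most abundant, the most abundant per family and arm, those called, the 5 smallest p per comparison, and opposite arms.

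Tests used edgeR 4.0.16 (R 4.3.3): filterByExpr by group, TMM, a quasi-likelihood fit to 16 libraries with 1 coefficient per group. Adjusted p-values are from it unless another tool is named. DESeq2 1.42.0 and limma 3.58.1 were alternatives. Replicates are mice by number. Deviations from group means correlated at a mean of 0.135 in 24 same-mouse and -0.044 in 72 other pairs of libraries. Controls 3 and 4 correlated negatively with every other library of their own number; the labels were kept. Same-group libraries were not near duplicates (chi-square per degree of freedom at least 205). Gene positions come from GRCm38.p6, which is not the files' build, and were used for names, neighbours and chromosomes only. Count limits cover counting error only.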

Additional observations from a re-analysis of the deposited data

Results flagged for a closer look

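In each group of 4 libraries, the level of every named member and family sum was checked for 1 library far from the other 3, by Dixon's criterion (a gap that takes up most of the range). Chance flags about 1 in 20 such groups if the values are independent and normally distributed, and 19 of 159 were flagged. A scarce member detected in only 1 library of a group is flagged by construction. Sums and near-copies also repeat the values of other members. The flagged count therefore cannot be compared with that rate. No explanation was tested for the flags.

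The level of miR-669c-5p in LPS 4 was 44.0 CPM against 22.6 to 24.9 in the other LPS libraries. In quercetin + LPS 1, miR-466a/e-3p and miR-466b/c/p-3p each read 33.5 CPM against 21.8 to 23.1, and the miR-466 sum was 87.6 CPM against 67.1 to 69.4. The level of miR-669a/o-3p was low in quercetin 1 (20.5 CPM against 36.4 to 39.1) and in quercetin + LPS 1 (21.0 against 27.6 to 28.5). Sums of miR-669 members stood out in quercetin 1 (110 CPM against 136.4 to 141.4) and in quercetin + LPS 4 (177 against 109 to 118), and the miR-467 sum in control 4 (143 against 180.4 to 187.7).

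Among members that bear on the calls, miR-467f read 1.85 CPM in quercetin 1 against 0.72 to 0.794 in the other quercetin libraries, a level inside the range of the controls. In quercetin 3, miR-466h-3p read 1.82 CPM against 0.96 to 1.05.

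The remaining flags are of scarce members, most with 0 counts in the other 3 libraries of the group: miR-466e-5p in quercetin 4 (1.080 CPM against 0.492 to 0.567), miR-467b-3p in LPS 1 (0.169) and quercetin 3 (0.227), miR-669c-3p in control 1 (0.0773) and quercetin 2 (0.105), miR-297c-5p in control 1 (0.541) and LPS 3 (0.317), and miR-669b-3p in LPS 3 (0.555).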

How the results depend on the processing

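No log2 fold change of a member followed singly changed sign under the alternatives run, but group differences in the summed level did. For these members, 777 values kept their side of the threshold, 56 fell short of it and 15 passed it newly. The count of members called was 0 under every alternative for LPS against control, quercetin + LPS against quercetin, and the interaction. For quercetin against control it was 2, and 0 with a mean CPM of at least 5 (13 members tested, without the called pair) or without the 4 libraries that stood apart; leaving out 1 library gave 1 to 2. For quercetin + LPS against LPS it was 4, then 2 with upper-quartile scaling (the cause was not tested), 1 with a mean CPM of at least 5, and 1 to 5 without 1 library. Pooled over LPS states it was 7, then 4 with no filter (60 members and 1372 miRNAs tested), 1 with a mean CPM of at least 5, 6 with DESeq2, 8 with limma-voom, and 5 to 9 without 1 library. With the mouse as a replicate block the counts were 0, 2, 4, 0, 8 and 0 in the order of the comparisons; the block added miR-466a/e-3p to the pooled calls (-0.39, adjusted p = 0.0480) and changed no other call. The summed level was 409.7 CPM in control (389.9 to 427.6 without 1 library), 430.6 in LPS (413.3 to 440.9), 367.1 in quercetin (364.4 to 370.9) and 368.6 in quercetin + LPS libraries (347.2 to 389.8). Counting each name instead of each distinct member gave 652.8, 695.9, 581.3 and 578.8 CPM, since identical counts then enter repeatedly. With library size only, the sums were 403.1 (control), 385.4 (LPS), 392.7 (quercetin) and 392.0 CPM (quercetin + LPS), which turns LPS against control and quercetin + LPS against LPS; with upper-quartile scaling, added after seeing the data, the quercetin sum was 396.0 CPM, above the control sum. Counting the near-copies miR-466a/e-3p and miR-466b/c/p-3p once, also added later, gave 344.0 CPM with quercetin, since 1 of the pair is left out. The members' median turned as well, from 0.06 to -0.09 in LPS against control with library size only. Few counts limit the scarce members: 28 of 60 could not be tested, and miR-467f and miR-466h-3p had 3 counts in some libraries.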
